A study of Mus musculus with 2 samples.

Results

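The genes described here are 8 members of the acute-phase response that cells outside the liver also make: Lrg1, Serpina3n, Saa3, Hp, Lcn2, Steap4, Cebpd and Cebpb. They were taken by symbol, 1 row each, from the 31053 genes of the deposited tables, in every cell class of 2 libraries. The mice were male and C57BL6/J wild-type, and on day 20 after surgery the cells of the heart other than cardiomyocytes were taken. The surgery was either sham or transverse aortic constriction (TAC), in which a band on the aortic arch makes the left ventricle pump against a higher pressure. Hearts were digested with enzymes, cardiomyocytes were left to settle, and living cells, free of the dye DAPI, were sorted and captured in droplets with a 10x Genomics kit that reads the 3′ end of transcripts. Each group is 1 library, and how many hearts went into it is not given in the sources used here. No difference between the libraries therefore has a replicate check, and every interval below covers counting error of unique molecular identifiers (UMIs) only. The members were selected on earlier results of these data, among them their UMI levels in sham and TAC cells of lymphatic and blood endothelium, so the values of its members are a description and carry no test.

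The acute-phase response is the fast change of secreted proteins that follows injury or infection. Cytokines of the interleukin-6, interleukin-1 and tumour necrosis factor families start it through STAT3, NF-kB and the C/EBP transcription factors, and glucocorticoids add to it. The liver is its main source, but endothelium, fibroblasts, epithelium and myeloid cells make their own share in the tissue. LRG1 is a secreted leucine-rich glycoprotein that modulates TGF-beta signalling in endothelium, and SERPINA3N is a secreted inhibitor of serine proteases. Serum amyloid A3 and haptoglobin are secreted proteins that carry lipid and bind free haemoglobin, and lipocalin 2 binds iron-loaded siderophores. STEAP4 is a metalloreductase of iron and copper. C/EBP-delta and C/EBP-beta are basic leucine zipper transcription factors.

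The sham library kept 7894 cells at a median of 4882 UMIs and the TAC library 7854 cells at a median of 11158 UMIs, 2.29 times as deep, and the libraries shared 15 barcodes. The 8 genes were kept out of the clustering. Lymphatic endothelial cells (72 in sham, 322 in TAC) showed 7 of 7 usable markers in at least 20% of cells, among them Prox1, Lyve1 and Flt4, and blood endothelial cells (108 and 584) showed 8 of 8, among them Cdh5, Kdr and Fabp4. The other classes compared were endocardial cells (65 and 72), fibroblasts (6097 and 5388), macrophages (947 and 634), monocytes (110 and 118) and B cells (51 and 51). Pericytes (36 and 73), neutrophils (4 and 63), mesothelial cells (4 and 9) and cardiomyocytes (14 and 31) had under 50 cells in a library, so they are given by level alone, and 4.89% of sham and 6.48% of TAC cells took no name. A level is given in CPM, the UMIs of a gene over all UMIs of the class in 1 library, scaled to 1e6.

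All 8 genes are protein-coding and matched the GENCODE vM21 annotation of mm10. The secreted members were Lrg1 (ENSMUSG00000037095) at chr17:56119678-56122001 on the minus strand, Serpina3n (ENSMUSG00000021091) at chr12:104406729-104414329 on the plus strand, Lcn2 (ENSMUSG00000026822) at chr2:32384633-32388252 on the minus strand, Saa3 (ENSMUSG00000040026) at chr7:46711998-46715700 on the minus strand and Hp (ENSMUSG00000031722) at chr8:109575128-109579172 on the minus strand. The metalloreductase was Steap4 (ENSMUSG00000012428) at chr5:7960457-7982213 on the plus strand. The transcription factors were Cebpd (ENSMUSG00000071637) at chr16:15887286-15891031 on the plus strand and Cebpb (ENSMUSG00000056501) at chr2:167688915-167690418 on the plus strand. Serpina3n belongs to a cluster of close paralogs, and reads that fit several copies could be split or lost in the authors' counting, so its level is less certain.

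The sequence just before the transcription start is shown for Lrg1, Serpina3n, Lcn2, Saa3 and Steap4, where matches to the binding letters of the inputs named above could be counted beside the levels. Promoters were listed for 6 of the 8 members (not Hp and Cebpd) in RefSeq (GRCm38.p6, the build of the files). The 250 bases before the start lie at chr17:56121947-56122196 for Lrg1 (minus strand), chr12:104406458-104406707 for Serpina3n (plus), chr2:32387740-32387989 for Lcn2 (minus), chr7:46715677-46715926 for Saa3 (minus) and chr5:7960222-7960471 for Steap4 (plus). The GENCODE genes of Lrg1, Saa3 and Steap4 begin inside these windows and that of Lcn2 before its window, so RefSeq and GENCODE place the start differently there. The windows read 5′ to 3′ on the strand of the gene, with matches to 3 motifs in capitals.
Lrg1: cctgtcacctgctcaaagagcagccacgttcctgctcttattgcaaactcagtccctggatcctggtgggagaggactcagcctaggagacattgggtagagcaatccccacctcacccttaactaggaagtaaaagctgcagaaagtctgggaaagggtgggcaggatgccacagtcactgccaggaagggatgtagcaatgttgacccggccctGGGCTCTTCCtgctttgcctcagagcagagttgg
Serpina3n: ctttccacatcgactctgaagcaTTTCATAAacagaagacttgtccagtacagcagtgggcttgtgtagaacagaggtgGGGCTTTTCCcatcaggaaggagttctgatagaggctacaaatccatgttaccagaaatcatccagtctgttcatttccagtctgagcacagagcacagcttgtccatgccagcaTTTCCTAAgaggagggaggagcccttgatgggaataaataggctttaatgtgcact
Lcn2: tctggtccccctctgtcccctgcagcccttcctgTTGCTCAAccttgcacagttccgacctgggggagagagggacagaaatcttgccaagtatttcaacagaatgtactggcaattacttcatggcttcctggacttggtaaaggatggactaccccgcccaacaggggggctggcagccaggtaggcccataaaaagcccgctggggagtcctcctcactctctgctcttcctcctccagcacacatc
Saa3: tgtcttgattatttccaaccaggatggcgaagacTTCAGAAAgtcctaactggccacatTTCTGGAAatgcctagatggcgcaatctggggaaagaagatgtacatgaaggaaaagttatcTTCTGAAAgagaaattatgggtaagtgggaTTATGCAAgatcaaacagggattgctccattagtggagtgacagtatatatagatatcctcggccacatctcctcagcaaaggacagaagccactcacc
Steap4: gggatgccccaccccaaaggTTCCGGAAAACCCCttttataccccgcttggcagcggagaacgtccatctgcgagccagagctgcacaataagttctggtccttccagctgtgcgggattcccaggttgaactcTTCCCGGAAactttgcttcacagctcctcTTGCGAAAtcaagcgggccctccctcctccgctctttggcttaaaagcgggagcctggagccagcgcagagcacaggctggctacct

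The motifs were TTNNGNAA for C/EBP, TTCNNNGAA for STAT and GGG, any 3 bases and TTCC for NF-kB, each on both strands. A C/EBP match stood in 4 of 6 member windows, against 36.8% of the 32851 listed promoters of the same length. Saa3 held 4 such matches, Serpina3n and Steap4 2 each and Lcn2 1. An NF-kB match stood in 3 of 6 windows (Lrg1, Serpina3n and Steap4), against 4.65% of all. In Lrg1 it was GGGCTCTTCC, 34 bases before the start. A STAT match stood in 1 of 6 windows, TTCCCGGAA in Steap4, against 7.02% of all. In Steap4 the first C/EBP match and the NF-kB match overlap. Cebpb held none of the 3 in this window. A match is a description of letters, and no binding was measured.

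Lymphatic endothelium held 3 of the 6 effector genes in the TAC library, Lrg1, Lcn2 and Serpina3n, and in sham mainly Lcn2 and a lower level of Lrg1. Lrg1 was at 216 CPM (49 UMIs, 95% interval 159 to 285) in sham and 2092 CPM (5555 UMIs, 95% interval 2037 to 2148) in TAC, 9.7-fold higher (95% interval 7.33 to 13.1). Serpina3n was at 17.6 CPM (4 UMIs, 95% interval 4.79 to 45.1) in sham and 345 CPM (916 UMIs, 95% interval 323 to 368) in TAC, 19.6-fold higher (95% interval 7.63 to 72.1). In both genes the intervals of the 2 libraries lay far apart, and the sham value of Serpina3n rests on 4 UMIs. Lcn2 was already high in sham, at 823 CPM (187 UMIs, 95% interval 709 to 949), and stood at 1289.8 CPM (3425 UMIs, 95% interval 1247 to 1334) in TAC. That is 1.57-fold higher (95% interval 1.35 to 1.83), short of 2-fold.

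The other effector genes were scarce in the same cells. Steap4 had 1 UMI in sham and 49 in TAC (18.5 CPM), a ratio of 4.19 (95% interval 0.718 to 169). Hp had 1 UMI in sham and 0 in TAC, where 0 UMIs allow up to 1.13 CPM. Saa3 had 0 UMIs in sham, which allow up to 13.2 CPM, and 1 in TAC. So Saa3, with the most C/EBP matches in its window, and Hp were not detectable as lymphatic endothelial genes at this depth.

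The 2 transcription factors differed in opposite directions in lymphatic endothelium. Cebpb was at 506 CPM (115 UMIs, 95% interval 418 to 607) in sham and 1177 CPM (3125 UMIs, 95% interval 1136 to 1219) in TAC, 2.33-fold higher (95% interval 1.93 to 2.83). Cebpd was at 1474 CPM (335 UMIs, 95% interval 1320.1 to 1640.2) in sham and 795 CPM (2110 UMIs, 95% interval 761 to 829) in TAC, 1.85-fold lower (95% interval 1.65 to 2.08). In sham Cebpd was the more counted of the pair and in TAC Cebpb was, with intervals that did not overlap in either library; these are UMIs not scaled by gene length, so the order of the pair is one of counts.

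A gene was counted as measured in a class if it reached 10 CPM in either library, and as different if the ratio of CPM + 1 was at least 2-fold. Of the 6 members measured in lymphatic endothelium, 4 were at least 2-fold higher in TAC (Lrg1, Serpina3n, Steap4 and Cebpb) and 0 were lower. With no filter on cells, doublets kept, cells thinned, a pseudocount of 10 CPM or a minimum of 50 CPM it was 3, without Cebpb in the first pair and without Steap4 in the others. Among all 9229 genes measured there, 9.99% were higher and 8.81% lower by the same rule. Because 10 CPM is about 2 UMIs in the sham cells, the count was repeated with the interval of the ratio wholly past 1. Then 3 of the 6 members remained (without Steap4), against 2.97% of all genes higher and 4.96% lower. The median log2 ratio was 1.53 over the members and -0.08 over all genes.

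**Figure D1:**
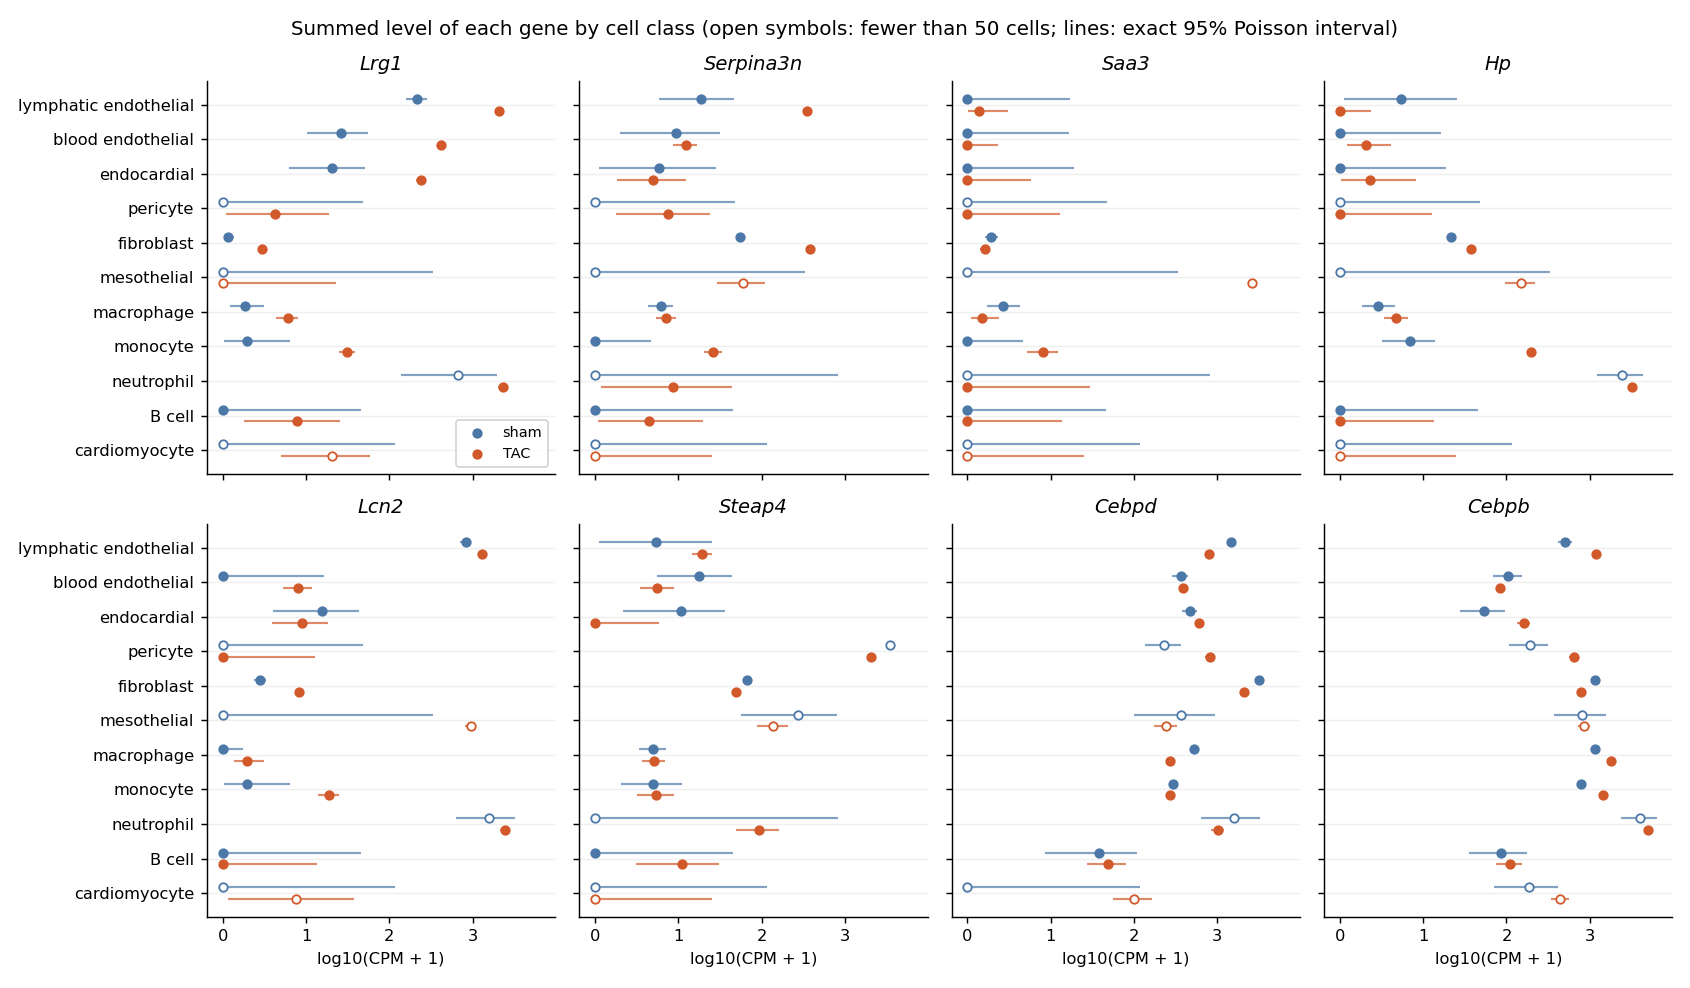
Level of the 8 genes in each cell class, as log10(CPM + 1), sham in blue and TAC in orange. Points are summed levels of 1 library, lines their exact 95% Poisson intervals, and open points classes with fewer than 50 cells; Lrg1 in lymphatic endothelium lies at 216 CPM in sham and 2092 CPM in TAC, while Saa3 is near 0 outside the 9 mesothelial cells of the TAC library.

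Deeper cells show more genes, so lymphatic endothelial cells were compared at 1700 UMIs drawn from each; 13 sham cells and 0 TAC cells were shallower and not used. At that depth the share with Lrg1 was 33.9% (95% interval 22.1 to 47.4) in sham and 80.1% (95% interval 75.3 to 84.3) in TAC, and unthinned 41.7% and 94.4%. Serpina3n was seen in 5.08% (95% interval 1.06 to 14.1) and 41.6% (95% interval 36.2 to 47.2), and unthinned in 5.56% and 76.4%. For both genes the shares lay apart at equal depth. Lcn2 was seen in 61% (95% interval 47.4 to 73.5) and 78.9% (95% interval 74 to 83.2), Cebpb in 49.2% (95% interval 35.9 to 62.5) and 72.4% (95% interval 67.1 to 77.2), and Cebpd in 67.8% (95% interval 54.4 to 79.4) and 60.2% (95% interval 54.7 to 65.6). Only for Cebpd among these 3 did the intervals overlap. Unthinned, the shares were 79.2% and 94.4% for Lcn2, 58.3% and 95% for Cebpb, and 79.2% and 87.3% for Cebpd.

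**Figure D2:**
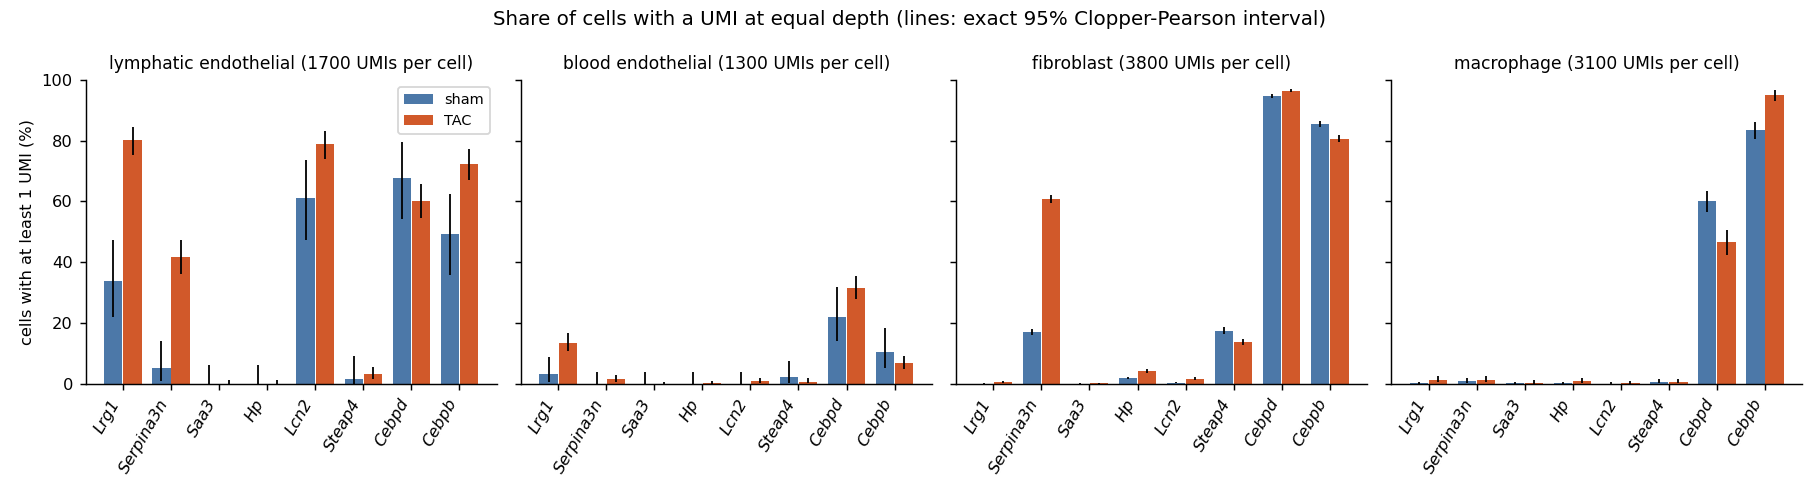
Percent of cells with at least 1 UMI of each gene after thinning every cell to the number of UMIs in the panel title, sham in blue and TAC in orange, with exact 95% Clopper-Pearson intervals. Lrg1 is seen in 33.9% of sham and 80.1% of TAC lymphatic endothelial cells, and Serpina3n in 17% and 60.8% of fibroblasts.

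Among thinned lymphatic endothelial cells the per-cell count of Lrg1 had a median of 0 UMIs in sham, with a highest value of 4, and a median of 3 in TAC, with a 90th percentile of 9 and a highest value of 16. The 10% of TAC cells with the most Lrg1 held 31.2% of its UMIs, so the gene was spread over most cells of the class. Lcn2 ran from a median of 1 in sham to 2 in TAC. Serpina3n had a median of 0 and a highest value of 6 in TAC.

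The members were often seen in the same cell. Of the 8 genes, a sham lymphatic endothelial cell showed a median of 2 and a TAC cell a median of 4 at equal depth. At least 3 of them were found together in 45.8% of the sham cells and 78% of those in TAC. In fibroblasts, at 3800 UMIs per cell, these shares were 27.4% and 54.4%. Genes that are each seen in many cells meet often, so such shares show no link between them. Within the TAC library, Lcn2 was seen in 84.9% of the 258 cells with Lrg1 and in 54.7% of those without it. Cebpb was seen in 79.8% and 42.2%. Cebpd was seen in 60.1% and 60.9%, alike in both, and Serpina3n in 43.4% and 34.4%. In sham Lcn2 was seen in 55% of the 20 cells with Lrg1 and in 64.1% of those without it, the other direction. There Cebpb was seen in 60% and 43.6%, Cebpd in 65% and 69.2% and Serpina3n in 5% and 5.13%. Cells of 1 library are not replicates.

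Neutrophils and fibroblasts hold several of these genes and could lend RNA to other cells. In lymphatic endothelium the 3 neutrophil genes S100a8, S100a9 and Retnlg were all at 0 in sham and summed to 11.3 CPM in TAC, 0.00703% of their level in neutrophils. At that share neutrophil RNA would bring 0.16 CPM of Lrg1 and 0.17 CPM of Lcn2, against 2092 and 1289.8 CPM measured. The 8 fibroblast markers stood at 4.94% of their fibroblast level in sham and 2.53% in TAC. That share would bring 2.67 CPM of Serpina3n in sham and 9.6 in TAC, and 156 and 52.4 CPM of Cebpd. Macrophage C1q genes stood at 5.59% and 1.32% of their macrophage level, worth 65 and 23.7 CPM of Cebpb. All of these are under the measured levels of the genes named. The part of lent RNA in those levels was not tested.

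In blood endothelium Lrg1 was the 1 member with a higher TAC level and intervals apart, and most of it sat in 1 sub-cluster. Lrg1 was at 25.1 CPM (6 UMIs, 95% interval 9.22 to 54.7) in sham and 417 CPM (1185 UMIs, 95% interval 394 to 441) in TAC, 16.6-fold higher (95% interval 7.61 to 45.3). Of 5 members measured, 1 was at least 2-fold higher (Lrg1) and 1 lower (Steap4), beside 9.19% of the 9105 genes higher and 8.02% lower. With the interval wholly past 1, Lrg1 remained and Steap4 did not, beside 2.71% of genes higher and 4.43% lower. Steap4 had 4 UMIs in sham and 13 in TAC, a ratio of 0.273 (95% interval 0.0844 to 1.15). The median log2 ratio was 0.11 over the members and -0.06 over all genes.

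Clustered alone, blood endothelial cells gave, without the members among the clustering genes, a venous sub-cluster led by Plvap, Lrg1 itself, Vwf and Igfbp5 (10 sham and 74 TAC cells). Its Lrg1 was at 191 CPM (5 UMIs, 95% interval 62 to 446) in sham and 1753 CPM (1001 UMIs, 95% interval 1646 to 1865) in TAC. It held 1001 of the 1185 Lrg1 UMIs of TAC blood endothelium. A sub-cluster led by Samd5, Cxxc4 and Nog (34 and 115 cells) was at 14.6 and 279.8 CPM, and an arterial one led by Nebl and Gja4 (23 and 40 cells) at 0 and 65 CPM. The Samd5 sub-cluster took no name but scored highest on venous markers, at 0.55, under the 0.6 needed for a name. The 3 capillary sub-clusters were at 0 to 18.6 CPM in TAC, and 4 sham and 7 TAC cells that split off with fibroblast genes in the lead were too few for a level. The low capillary level depends on the resolution, 0.5 here: at 0.3, with no Samd5 sub-cluster, a capillary one led by Car4 and Timp4 (55 and 371 cells) had Lrg1 at 114 CPM (166 UMIs) in TAC. At 0.5 Lrg1 spanned the whole range from 0 to 1753 CPM within 1 class of 1 library.

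**Figure D3:**
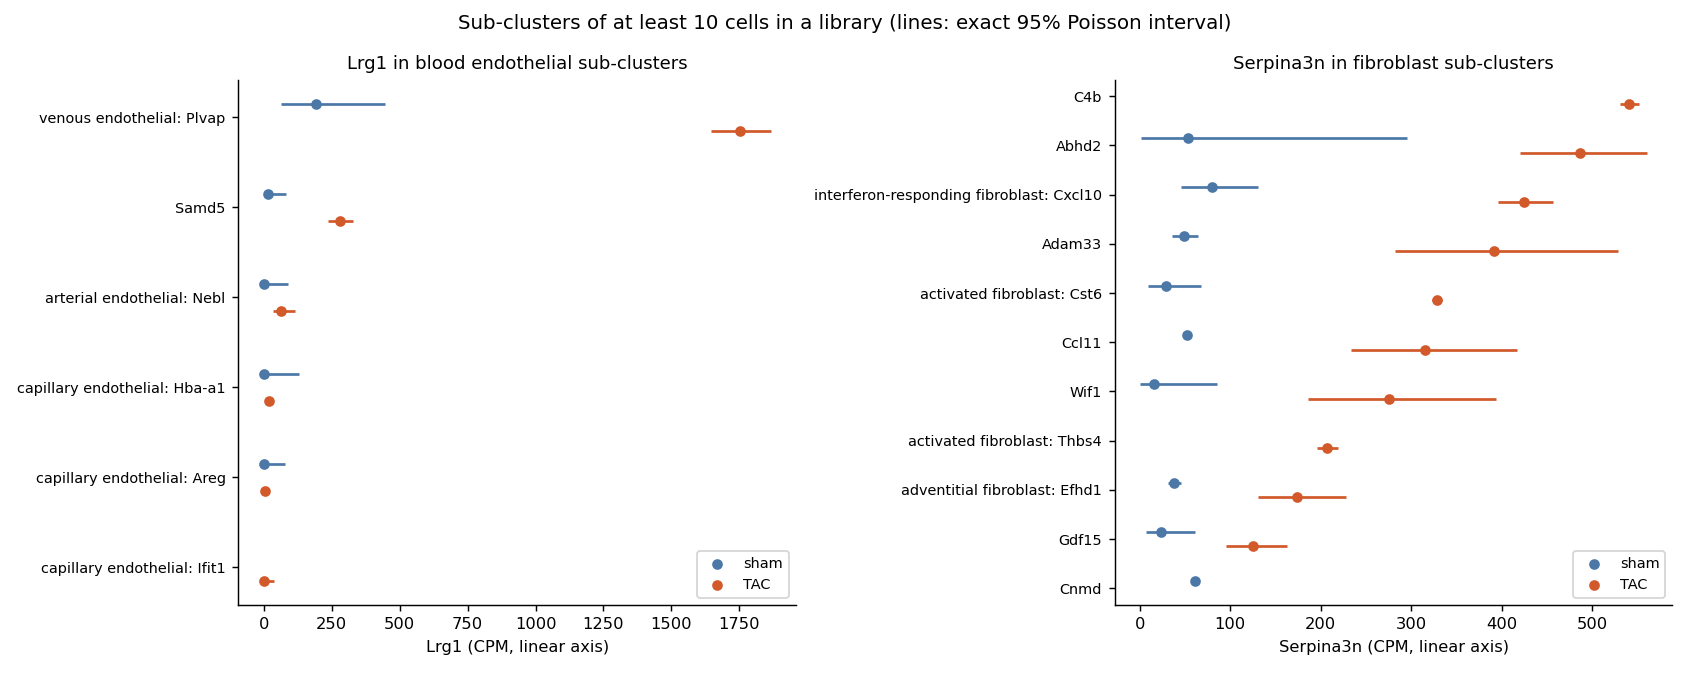
Level of Lrg1 in sub-clusters of blood endothelium (left) and of Serpina3n in sub-clusters of fibroblasts (right), in CPM on linear axes, sham in blue and TAC in orange, with exact 95% Poisson intervals; sub-clusters are labelled by their leading gene other than the one plotted. Lrg1 reaches 1753 CPM in the venous sub-cluster and at most 279.8 CPM in the others, whereas Serpina3n lies above its sham level in each fibroblast sub-cluster with 10 cells in both libraries.

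The remaining members were low in blood endothelium or had ratios whose intervals include 1. Serpina3n was at 8.37 CPM (2 UMIs) and 11.3 CPM (32 UMIs), and fibroblast RNA at the share seen in these cells (7.21% and 3.5%) would bring 3.89 and 13.3 CPM. Both sham UMIs and 7 of the 32 in TAC lay in the 4 and 7 cells with fibroblast genes in the lead. The log2 ratio of Serpina3n was 0.39, and over the alternatives it ran from 0.21 to 4.27, with the ratio moved by over 1.5 times in 6 of 15, so these counts do not fix its size. Lcn2 had 0 UMIs in sham and 20 in TAC (7.04 CPM), Hp 0 and 3, and Saa3 0 in both. Cebpd was at 359.9 CPM (86 UMIs) and 389 CPM (1106 UMIs), a ratio of 1.08 (95% interval 0.868 to 1.36), and Cebpb at 105 CPM (25 UMIs) and 83.4 CPM (237 UMIs), a ratio of 0.797 (95% interval 0.527 to 1.26). The fibroblast share would bring 227 CPM of Cebpd and 82.8 CPM of Cebpb in sham against the measured sham levels above, and its part in these ratios was not tested.

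The gap between the 2 endothelia was large within each library. At 1200 UMIs per cell, the share of lymphatic cells with Lcn2 was 49.3% in sham and 69.9% in TAC, and that of blood endothelial cells 0% and 0.691%. The 0 of sham blood endothelial cells allows a share of up to 3.62% (upper end of the exact 95% interval). Lrg1 was seen in 75.2% of lymphatic, 13.8% of blood endothelial and 20.8% of endocardial cells in TAC, with 0.168% of fibroblasts as background. Serpina3n was seen in 30.4% of lymphatic and 1.38% of blood endothelial cells in TAC, with 0.634% of macrophages as background. It was seen in 31.3% of TAC fibroblasts, so this share was not particular to lymphatic cells. The median depths behind these TAC shares before thinning were 7850 UMIs in lymphatic, 4244 in blood endothelial, 9988 in endocardial, 12092 in fibroblast and 8396 in macrophage cells.

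Endocardial cells, which line the chambers, were the third endothelial class with Lrg1. Lrg1 was at 19.3 CPM (4 UMIs, 95% interval 5.26 to 49.5) in sham and 240.1 CPM (183 UMIs, 95% interval 207 to 278) in TAC, 12.4-fold higher (95% interval 4.77 to 46.1). Cebpb was at 53.1 CPM (11 UMIs) and 161 CPM (123 UMIs), 3.04-fold higher (95% interval 1.64 to 6.24), and Cebpd at 469 CPM (97 UMIs) and 594 CPM (453 UMIs), 1.27-fold higher (95% interval 1.02 to 1.6). Of 4 members measured there, 2 were at least 2-fold higher (Lrg1 and Cebpb) and 0 lower, beside 12.8% of the 9201 genes higher and 11% lower. The class is not 1 cluster: 64 of its 65 sham cells came from a cluster led by Cytl1, Igfbp5 and Vwf, and 49 of its 72 TAC cells from one led by Nrg1, Sost and H19. Within the Cytl1 cluster Lrg1 was at 19.7 CPM (4 UMIs) in sham and 150.2 (26 UMIs) in TAC, and Cebpb at 49.2 (10 UMIs) and 52 CPM (9 UMIs). The Lrg1 gap was thus seen inside 1 cluster and the Cebpb gap was not, on UMIs too few to show its absence. With the libraries clustered separately the log2 ratio of Cebpb was -0.0737 instead of 1.58. The 8 fibroblast markers summed to 17.6% of their fibroblast level in sham and 19.7% in TAC endocardial cells, with medians over the markers of 2.2% and 3.14%. The summed share would bring 554 and 408 CPM of Cebpd and 202 and 153 CPM of Cebpb, above the measured sham level of both genes and near the TAC level of Cebpb, and 0.0281 and 0.383 CPM of Lrg1. Its part in the C/EBP ratios was not tested. Neutrophil genes summed to 4.83 CPM in sham and 133 CPM in TAC endocardial cells, a share worth 1.88 CPM of Lrg1 and 4.16 CPM of Cebpb in TAC.

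**Figure D4:**
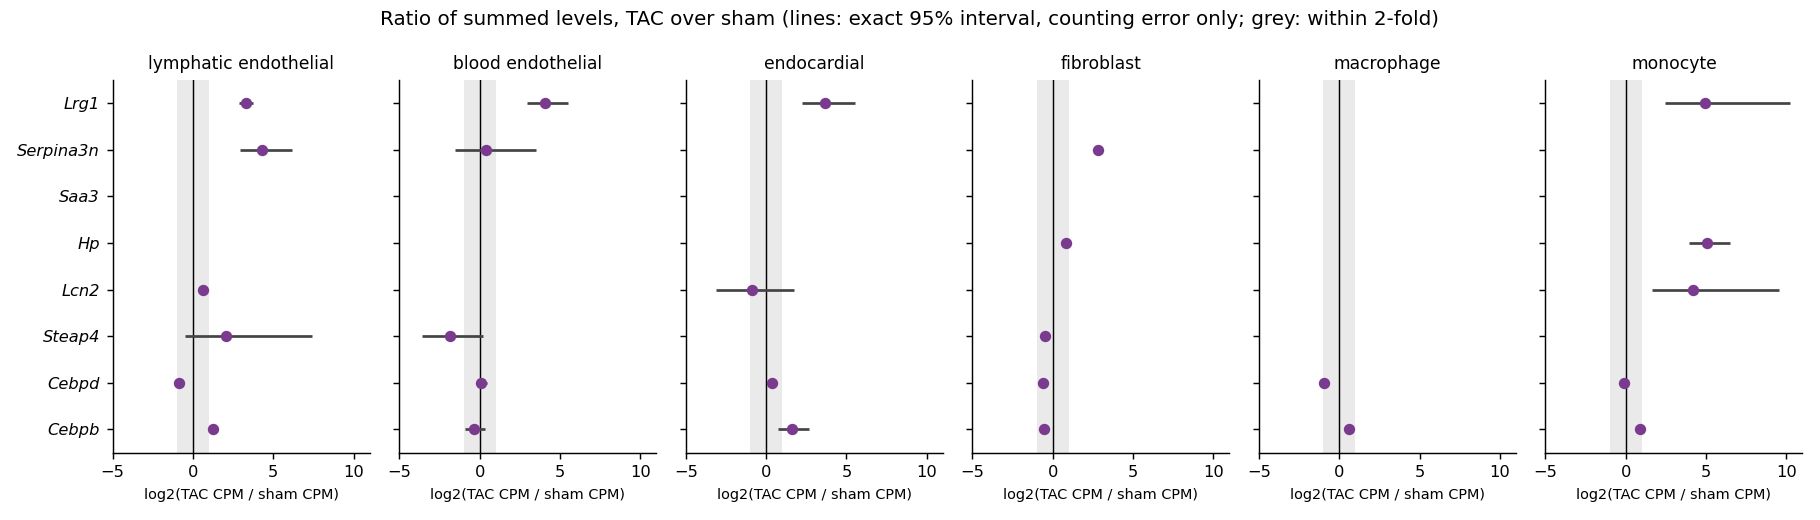
Log2 ratio of TAC over sham CPM for each gene measured in a class with UMIs in both libraries, with the exact 95% interval for counting error; the grey band marks less than 2-fold. Lrg1 lies right of the band in all 3 endothelial classes and, with Hp and Lcn2, in monocytes, and Serpina3n does in lymphatic endothelium and fibroblasts. In lymphatic endothelium and macrophages the intervals of Cebpd and Cebpb lie wholly on opposite sides of 0.

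Fibroblasts, the class with the most cells and UMIs, held Serpina3n and the 2 C/EBP factors. Serpina3n was at 53.9 CPM (1685 UMIs, 95% interval 51.4 to 56.6) in sham and 379 CPM (24992 UMIs, 95% interval 374 to 384) in TAC, 7.03-fold higher (95% interval 6.69 to 7.39). At 3800 UMIs per cell it was seen in 17% (95% interval 16 to 18.1) of sham and 60.8% (95% interval 59.5 to 62.2) of TAC fibroblasts, and unthinned in 20.7% and 83.1%. It was the 1 member of 5 measured that passed 2-fold, beside 3.1% of 8812 genes higher and 2.49% lower, and the median log2 ratio was -0.44 over the members and -0.06 over all genes.

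Serpina3n was higher in TAC in all 8 fibroblast sub-clusters with 10 cells in both libraries, with intervals apart in 8 of them. Most fibroblast sub-clusters were nearly all of 1 library, so they describe the libraries as much as kinds of cell. In TAC the level ran from 126 CPM in a sub-cluster led by Gdf15, Trib3 and Asns (35 cells) to 541 CPM in one led by C4b, Apod and Mmp3 (1520 cells). An activated sub-cluster led by Thbs4, Comp and Cthrc1 (514 cells) stood at 207 CPM. The C4b sub-cluster also had the highest TAC level of Steap4 (112 CPM) and of Cebpd (2882 CPM), against 19 and 1989.8 CPM in the Thbs4 and Comp sub-cluster. Serpina3n, Steap4 and Cebpd were thus all lower in the Thbs4 and Comp sub-cluster than in the C4b one.

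Both C/EBP factors were lower in TAC fibroblasts. Cebpd was at 3151 CPM (98436 UMIs) in sham and 2070.2 CPM (136451 UMIs) in TAC, 1.52-fold lower (95% interval 1.51 to 1.53). Cebpb was at 1148 CPM (35860 UMIs) and 774 CPM (51029 UMIs), 1.48-fold lower (95% interval 1.46 to 1.5). Across the 8 fibroblast sub-clusters with 10 cells in both libraries, Cebpd was lower in TAC with intervals apart in 6 and higher in 1, and Cebpb lower in 4 and higher in 1. Fibroblasts nevertheless kept the highest Cebpd of all classes of at least 50 cells in either library. Hp was at 20.7 and 37 CPM, 1.79-fold higher (95% interval 1.64 to 1.95), and Steap4 at 64.9 and 47.5 CPM, 1.37-fold lower (95% interval 1.29 to 1.45). Lrg1 (0.16 and 1.94 CPM), Lcn2 (1.79 and 7.31 CPM) and Saa3 (0.928 and 0.607 CPM) were under the 10 CPM minimum in both libraries.

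Macrophages held the C/EBP factors and little else. Cebpb was at 1162 CPM (5597 UMIs) in sham and 1793 CPM (11082 UMIs) in TAC, 1.54-fold higher (95% interval 1.49 to 1.59). Cebpd was at 519.8 CPM (2504 UMIs) and 272 CPM (1681 UMIs), 1.91-fold lower (95% interval 1.8 to 2.03). The opposite directions of the pair were thus seen in macrophages as in lymphatic endothelium, while in fibroblasts both were lower. Fibroblast markers stood at 7.81% of their fibroblast level in sham macrophages and 1.56% in TAC, worth 246 and 32.2 CPM of Cebpd, and 70 of the sham cells formed a sub-cluster led by Dcn and Serping1. Most sham cells of the class came from a cluster led by Ccl24, Folr2 and Mgl2 (888 sham and 52 TAC cells) and most TAC cells from one led by Ighg2c, Ccl8 and Ccl12 (59 and 582). Cebpd was at 538 and 534 CPM within the Ccl24 cluster and at 305 and 261 CPM within the other, so the gap of the class was not seen inside the Ccl24 cluster. Cebpb was at 1175 and 2107 CPM and at 1007 and 1779 CPM, higher in TAC inside both. Without the Dcn sub-cluster the log2 ratio of Cebpd was -0.55 instead of -0.93. Of 2 members measured, 0 passed 2-fold, beside 2.36% of 8237 genes higher and 4.24% lower. The other 6 members were at 0 to 5.19 CPM in sham and 0.485 to 6.15 CPM in TAC.

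The class named monocyte by its markers was led by Cd209a, Spp1 and Retnla, showed 4 of 7 markers in at least 20% of cells and had C1qa at 3033 and 3196 CPM, so its name is weak. The class had 50 cells in both libraries only in the clustering used here: it was absent at resolution 0.5, with either other cell filter or with doublets kept, and had 12 and 31 cells at resolution 1.5, 32 and 0 with the libraries clustered separately and 6 and 9 with a gate. Hp was at 5.91 CPM (6 UMIs, 95% interval 2.17 to 12.9) in sham and 196 CPM (494 UMIs, 95% interval 179 to 214) in TAC, 33.1-fold higher (95% interval 15.1 to 90.7). Lrg1 had 1 UMI in sham and 76 in TAC, a ratio of 30.6 (95% interval 5.32 to 1223), and Lcn2 had 1 and 45, a ratio of 18.1 (95% interval 3.09 to 730.4). Serpina3n had 0 UMIs in sham and 63 in TAC, at least 8.44-fold higher when the sham class sum is set to the floor of 3 counts. These 4 of the 6 members measured were at least 2-fold higher and 0 lower, beside 5.46% of 8699 genes higher and 4.33% lower. The median log2 ratio was 3.61 over the members and -0.04 over all genes. At 4300 UMIs per cell Hp was seen in 3.37% (95% interval 0.701 to 9.54) of sham and 33% (95% interval 24.3 to 42.7) of TAC cells. The shares with Lrg1 (1.12% and 5.5%), Lcn2 (0% and 6.42%) and Serpina3n (0% and 4.59%) had intervals that overlapped.

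Neutrophil genes were also higher in the TAC cells of this class. S100a8, S100a9 and Retnlg summed to 22.7 CPM in sham and 817 CPM in TAC monocytes, 0.508% of their neutrophil level. That share would bring 16.3 CPM of Hp, 11.6 CPM of Lrg1 and 12.3 CPM of Lcn2, against 196, 30.1 and 17.8 CPM measured. The measured Hp was far above that share and the measured Lcn2 close to it. The part of neutrophil RNA in these levels was not tested. The 8 fibroblast markers stood at 4.8% and 5.78% of their fibroblast level. At that share fibroblast RNA would bring 2.59 CPM of Serpina3n in sham and 21.9 in TAC, near the 25 CPM measured in TAC, and its part in the Serpina3n difference was not tested. Cebpb was at 775 CPM (786 UMIs) and 1426 CPM (3598 UMIs), 1.84-fold higher (95% interval 1.7 to 1.99), and Cebpd at 296 and 269 CPM. Saa3 had 0 UMIs in sham and 18 in TAC (7.13 CPM).

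Neutrophils had the highest TAC levels of Hp and Cebpb of any class with at least 50 cells, and of Lcn2. In their 63 TAC cells Hp was at 3200.0 CPM (415 UMIs, 95% interval 2899.5 to 3523), Lcn2 at 2414 CPM (313 UMIs, 95% interval 2154 to 2696) and Cebpb at 5043 CPM (654 UMIs, 95% interval 4664 to 5445). Lrg1, which neutrophils are known to store, was at 2282 CPM (296 UMIs, 95% interval 2029.8 to 2558), and its interval overlapped that of lymphatic endothelium. The 4 sham neutrophils gave 11 UMIs of Hp, 7 of Lcn2, 3 of Lrg1 and 18 of Cebpb, too few for a comparison.

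Pericytes, the mural cells of small vessels, were the main site of Steap4. It was at 3474 CPM (273 UMIs, 95% interval 3074 to 3911) in the 36 sham cells and 2076 CPM (644 UMIs, 95% interval 1918 to 2242) in the 73 TAC cells, and the intervals did not overlap. In TAC 39 of these cells formed a cluster led by Acta2, Tagln and Myl9, in which Steap4 was at 2192 CPM, and 34 the cluster led by Kcnj8, Abcc9 and Higd1b, in which it was at 1896 CPM. Within the Kcnj8 cluster the sham level was 3424 CPM. Cebpd stood at 229 CPM (18 UMIs) and 815 CPM (253 UMIs) in pericytes, and Cebpb at 191 CPM (15 UMIs) and 654 CPM (203 UMIs). The other 5 members had 0 UMIs in sham and at most 2 in TAC.

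Saa3 had 1 clear site, the mesothelial cells of the outer heart surface, named from 6 of 6 markers such as Msln, Wt1 and Upk3b. The 9 TAC cells held 437 Saa3 UMIs, 2581 CPM, with the gene seen in 55.6% of them. Of these UMIs 196 came from 1 cell, and the median was 5 per cell, so the level rests on few cells. The 9 cells also held 160 UMIs of Lcn2 (945 CPM) and 25 of Hp (148 CPM), and 0 of Lrg1. The 4 sham cells had 0 UMIs of all 3 in 11066 UMIs in all, which allow up to 271 CPM of each. Mesothelial Saa3 and lymphatic endothelial Lrg1 and Lcn2 thus lay in different cells: the 6 mesothelial markers were all at 0 in lymphatic endothelium of both libraries.

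B cells had little of any member. Cebpb was at 85.1 CPM (7 UMIs) in sham and 109 CPM (32 UMIs) in TAC and Cebpd at 36.5 CPM (3 UMIs) and 47.6 CPM (14 UMIs), ratios of 1.28 (95% interval 0.555 to 3.43) and 1.31 (95% interval 0.364 to 7.09). Steap4 passed 2-fold higher with 0 UMIs in sham and 3 in TAC, at the counting floor, so no fold is given. It was 1 of 3 members measured, beside 16% of 8709 genes higher and 35.1% lower. The median log2 ratio of all genes was -0.59 in this class, the one class in which it lay more than 0.1 from 0. In cardiomyocytes the TAC cells had 3 UMIs of Lrg1 and 1 of Lcn2.

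The order of classes with at least 50 cells differed by gene. For Lrg1 it was lymphatic, blood endothelial and endocardial in sham, of which the last pair overlapped, and neutrophil and lymphatic (overlapping), blood endothelial, then endocardial in TAC, the last 3 with intervals apart. For Lcn2 lymphatic endothelium stood first in sham, and neutrophils before lymphatic endothelium in TAC, each apart from the next class. For Serpina3n it was fibroblast before lymphatic in both libraries, with intervals apart. In sham the lymphatic interval overlapped that of blood endothelium, while in TAC the next class, monocyte at 25 CPM in TAC, lay apart from both leading classes. For Cebpb it was macrophage and fibroblast (overlapping), monocyte, then lymphatic in sham, and neutrophil, macrophage, monocyte, lymphatic, then fibroblast in TAC, each apart. Lymphatic endothelium stood after fibroblasts in sham and before them in TAC.

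Other genes of the response were read from lists of the acute-phase proteins and their inputs, with levels given for sham and then TAC. Their counts stand beside the shares of all genes at least 2-fold higher and lower, which were 9.99% and 8.81% in lymphatic endothelium, 9.19% and 8.02% in blood endothelium, 3.1% and 2.49% in fibroblasts and 2.36% and 4.24% in macrophages. So 1 gene of 10 in a direction is the background in the endothelia, and nothing is read from such counts. In lymphatic endothelium 7 of 25 other acute-phase proteins were measured, of which 3 were at least 2-fold higher in TAC and 0 lower, with a median log2 ratio of 0.47 against -0.08 over all genes. These were the pattern-recognition protein Ptx3 (88 and 297 CPM, a ratio of 3.38, 95% interval 2.17 to 5.56), the C1 inhibitor Serping1 (264 and 600.3 CPM, 2.27, 95% interval 1.76 to 2.99) and the lipopolysaccharide-binding protein Lbp (651 and 1408 CPM, 2.16, 95% interval 1.84 to 2.57). Ceruloplasmin (Cp) was at 611 and 847 CPM, a ratio of 1.39, 95% interval 1.17 to 1.66. In blood endothelium 0 of 6 measured genes of that list were higher and 3 lower, C3 (83.7 and 21.1 CPM), Serping1 (159 and 74.6 CPM) and Cd14 (41.9 and 5.28 CPM), with a median of -0.94 against -0.06. The ratio of Serping1 was 0.469, 95% interval 0.331 to 0.681 in blood endothelium. Fibroblasts held Serping1 at 2442 and 2999.9 CPM, and the fibroblast marker share of blood endothelium was 7.21% in sham and 3.5% in TAC; its part in the lower Serping1 there was not tested.

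Of the interleukin-6 family input and STAT3, 10 of 15 genes were measured in lymphatic endothelium, 2 higher and 1 lower, with a median of 0.02. Stat3 itself was at 52.8 and 141 CPM, a ratio of 2.68, 95% interval 1.51 to 5.22, and the kinase Tyk2 had 0 UMIs in sham, which allow up to 13.2 CPM, and 52 in TAC (19.6 CPM). The receptor Lifr was lower (79.2 and 23.7 CPM, a ratio of 0.3, 95% interval 0.175 to 0.538), and the shared receptor chain Il6st was at 246 and 125 CPM, a ratio of 0.506, 95% interval 0.38 to 0.684. In blood endothelium 0 were higher and 2 lower (Il6ra and Il11ra1) of 10, with a median of -0.26. In fibroblasts Socs3, the feedback inhibitor of this pathway, was at 832 and 149.8 CPM, a ratio of 0.18, 95% interval 0.176 to 0.184, Lifr at 60.5 and 21.6 CPM, and Il6 at 10.7 and 29.8 CPM, a ratio of 2.79, 95% interval 2.48 to 3.14. There 1 of 11 were higher and 2 lower, with a median of -0.01. In macrophages 0 of 10 were higher and 0 lower, with a median of 0.01.

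Of the interleukin-1, tumour necrosis factor and NF-kB input, 12 of 15 genes were measured in lymphatic endothelium, with 2 higher (Nfkb2 and Tnfaip3), 2 lower (Il1r1 and Il1rap) and a median of 0.06. All 4 rest on few sham UMIs, 1 for Nfkb2 and Tnfaip3, 4 for Il1r1 and 3 for Il1rap, and the interval of the ratio includes 1 for all but Nfkb2. In blood endothelium the NF-kB inhibitor Tnfaip3 was lower (79.5 and 8.44 CPM, a ratio of 0.106, 95% interval 0.0558 to 0.205) and was the 1 lower gene of 13. The 1 gene counted as higher, Il1b, had 0 UMIs in sham, which allow up to 12.6 CPM, and 33 in TAC (11.6 CPM), so no higher level is shown. The list had a median of -0.16 there. In fibroblasts 0 of 11 were higher and 1 lower, Nfkbiz (294 and 138 CPM), with a median of 0.18, and in macrophages 0 and 0 of 12, with a median of -0.09.

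Glucocorticoid-responsive genes were all measured in the 4 classes given here, 10 of 10. The immunophilin Fkbp5 was higher in TAC in lymphatic endothelium (26.4 and 85.9 CPM, a ratio of 3.25, 95% interval 1.47 to 8.96), blood endothelium (16.7 and 64 CPM, 3.83, 95% interval 1.47 to 14.2), fibroblasts (44.8 and 91 CPM, 2.03, 95% interval 1.91 to 2.15) and macrophages (15.2 and 102 CPM, 6.7, 95% interval 5.25 to 8.66). Per1 was higher in blood endothelium (12.6 and 75.7 CPM), fibroblasts (20.5 and 51.1 CPM) and macrophages (23.9 and 98.7 CPM), and Tsc22d3 in blood endothelium (318 and 687 CPM) and macrophages (422 and 1092 CPM). In all, 2 were higher and 1 lower in lymphatic endothelium (median 0.22), 4 and 0 in blood endothelium (median 0.50), 2 and 2 in fibroblasts (median 0.27) and 4 and 0 in macrophages (median 0.67). Fkbp5 was thus past 2-fold in all 4 classes, and Zbtb16, also on the list, was lower in lymphatic endothelium and fibroblasts.

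LRG1 acts on TGF-beta receptors, and 13 of 14 genes of that axis were measured in lymphatic endothelium. There 0 were higher and 1 lower, the BMP and TGF-beta target Id1 (290.3 and 134 CPM, a ratio of 0.463, 95% interval 0.355 to 0.612), with a median of -0.03. Tgfbr2 was at 611 and 387 CPM and Tgfb1 at 158 and 270.4 CPM. In blood endothelium 3 were higher (Tgfb1, Tgfb3 and Tgfbr3) and 1 lower (Tgfb2), with a median of -0.10. Tgfb1 passed 2-fold barely, at a ratio of 2.01, 95% interval 1.41 to 2.96. Tgfb3 and Tgfbr3 rest on 1 sham UMI each, and the intervals of their ratios were 0.57 to 136 and 1.16 to 266. That of Tgfb2 was 0.149 to 0.942. In fibroblasts 2 were higher and 0 lower, with Tgfb1 at 35.1 and 155 CPM (a ratio of 4.43, 95% interval 4.16 to 4.72) and Tgfb3 at 45.5 and 120.1 CPM (2.64, 95% interval 2.49 to 2.79), and a median of 0.11. In macrophages Tgfbr1 was higher (75.1 and 190.4 CPM) and Tgfbr3 lower (10.8 and 1.62 CPM), with a median of -0.10.

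Of receptors for the products of the members, 6 of 11 were measured in lymphatic endothelium, 2 higher (Lrp1 and Scarb1) and 2 lower (Tlr4 and Cd36), with a median of -0.33. Lrp1 rests on 4 sham UMIs, Scarb1 on 1 and Tlr4 on 3, and the intervals of these 3 ratios include 1, while that of Cd36 was 0.136 to 0.643. In macrophages Cd36 was at 309.9 and 103 CPM as the 1 gene past 2-fold of 6, with a median of -0.11. In blood endothelium 1 of 5 was higher (Tlr4, with 2 sham UMIs and an interval of 0.727 to 23), with a median of 0.36, and in fibroblasts 0 of 4 (median 0.09). Among other C/EBP genes, Cebpa in macrophages was the 1 past 2-fold in these 4 classes (82.4 and 219 CPM, a ratio of 2.66, 95% interval 2.38 to 2.98). The list medians were -0.39 in lymphatic endothelium, -0.56 in blood endothelium, 0.02 in fibroblasts and 0.35 in macrophages. Of 7 other Serpina3 paralogs in the tables, 0 reached 10 CPM in lymphatic or blood endothelium, and Serpina3c was measured in fibroblasts, where it was lower (14.4 and 6.43 CPM). Of 3 other STEAP genes, 0 were measured in lymphatic endothelium, and Steap3 was at 87.7 and 83.1 CPM in fibroblasts.

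The genes most like each member over the 14 class-by-library points were found by Pearson's r of log2(CPM + 10). The points share libraries and depth, so r is a description with no p. They were Sema3f (0.945), Cda (0.914) and F11r (0.911) for Lrg1, and Ccl21a (0.990), Adgrg3 (0.987) and Tbx1 (0.983) for Lcn2. The chemokine Ccl21a stands on 2 rows of the tables, and its near-identical copies can share reads. For Serpina3n they were A4galt (0.894), Tgfb3 (0.890) and Loxl2 (0.889), none of which was among the first 3 over the 7 points of either library alone. For Hp they were Ifitm1 (0.873), Clec4e (0.817) and Nr4a2 (0.794), and for Saa3, which was near 0 at every point, Clec4e (0.944), Arg1 (0.904) and Clec4d (0.898). For Steap4, without its pericytes, they were Clip3 (0.922), Pla1a (0.912) and Plekha6 (0.908). As for Serpina3n, none of the genes named for Saa3 or Steap4 was among the first 3 of either library alone. For Cebpd they were Nenf (0.968), Ikbip (0.955) and Chpt1 (0.951), and for Cebpb Ifi27l2a (0.925), Gas7 (0.918) and Cndp2 (0.899). No gene appeared with both C/EBP factors.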

How the data were processed

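Per the labels' protocols, viable cells were sorted and each group was run on its own lane. The deposited values are raw UMI counts for each gene in each barcode; per the file headers, Cell Ranger 3.1.0 wrote them; the genome build was mm10 per the submitters' processing notes, which also name Seurat. Cells were kept with at least 500 genes, 1000 UMIs and at most 15% of UMIs from mitochondrial genes, which dropped 462 sham and 901 TAC barcodes; also dropped were doublets called with Scrublet (70 and 146). Cells of both libraries were clustered together in Scanpy 1.11.5 (2000 variable genes, 30 components, 15 neighbours, Leiden resolution 1 with igraph 0.11.9, seed 7), leaving out the members and all listed genes. Clusters took a class name from markers: a scaled marker score of at least 0.6, at least 3 markers seen in 20% of cells, no other lineage at 0.55 or above, and no more markers of another class among the leading 10 genes. Names were rebuilt, so differences from other work can come from that. Counts were summed per class and library to CPM; log2 ratios used CPM + 1. Intervals are exact at 95% (Poisson, conditional binomial for ratios, Clopper-Pearson for shares), and a count of 0 allows up to 3 counts. With 1 library per group no test was run. Genes named are the members, up to 4 genes of each of 9 lists by size of the log2 ratio, and 3 most alike genes per member; genes outside this rule were chosen after their values were seen. The members and lists were chosen with earlier results of these data known. Calculations were checked on simulated data.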

Additional observations from a re-analysis of the deposited data

Results flagged for a closer look

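The TAC to sham ratio of Cebpd lay on opposite sides of 1 in different classes, each with an interval for counting error wholly on its side. Its log2 ratio was 0.34 in endocardial cells, -0.89 in lymphatic endothelium, -0.61 in fibroblasts and -0.93 in macrophages. Cebpb did the same, at 1.22 in lymphatic endothelium, 1.58 in endocardial cells, 0.63 in macrophages and 0.88 in monocytes, against -0.57 in fibroblasts. Some of these gaps were not seen inside 1 cluster. Within the endocardial cluster that both libraries share, Cebpb was at 49.2 and 52 CPM in sham and TAC, from only 10 and 9 UMIs. The endocardial log2 ratio was -0.0737 with the libraries clustered separately. Within the Ccl24 macrophage cluster Cebpd was at 538 and 534 CPM. The difference between classes was not tested, since each group has 1 library.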

How the results depend on the processing

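Over the alternatives run, the log2 ratio in lymphatic endothelium ranged from 3.09 to 3.35 for Lrg1, 3.69 to 4.30 for Serpina3n, 0.90 to 1.30 for Cebpb and -1.37 to -0.81 for Cebpd. It ranged from 2.97 to 4.06 for Lrg1 in blood endothelium and 2.61 to 2.87 for Serpina3n in fibroblasts. Counts of members at least 2-fold higher or lower in TAC moved more. In lymphatic endothelium 3 rather than 4 were higher with no filter on cells or doublets kept (log2 ratio of Cebpb 0.90 and 0.91), with cells thinned or a pseudocount of 10 CPM (Steap4 0.94 and 0.98) and with a minimum of 50 CPM, under which Steap4 was not measured. With no filter on cells 2 were higher in blood endothelium and 4 in macrophages. With the stricter filter 2 were higher in macrophages, and with doublets kept 1 was lower in lymphatic endothelium and 2 were higher in blood endothelium and 2 in macrophages. At resolution 0.5, 3 were higher in macrophages. With the libraries clustered separately 1 was lower in endocardial cells and 3 higher in macrophages, and the log2 ratio of Cebpb in endocardial cells was -0.0737, a reversal. With cells gated one by one on markers 2 were higher and 0 lower in blood endothelium and 3 higher in macrophages, and the log2 ratio of Steap4 in blood endothelium was 0.99, a reversal. Without mitochondrial, ribosomal and haemoglobin genes, or without cells holding neutrophil UMIs, 1 was lower in endocardial cells. With a pseudocount of 10 CPM, a minimum of 50 CPM, or without sub-clusters led by fibroblast genes (chosen after seeing the data), 0 were lower in blood endothelium. With no CPM minimum 1 was lower in lymphatic endothelium, 3 higher in blood endothelium, 1 lower in endocardial cells, 3 higher in fibroblasts and 1 higher in macrophages. With the mean CPM per cell 2 were higher and 0 lower in blood endothelium and 1 lower in endocardial cells. With cells thinned 2 were higher in blood endothelium and 1 higher and 1 lower in endocardial cells. The cause was not tested. The stricter filter left under 50 sham cells in both endothelia (47 and 41) and the gate 34 lymphatic ones, so these gave no value there. The monocyte results could not be repeated under either other cell filter, doublets kept, either other resolution, separate clustering or the gate. None of these gave a monocyte class of 50 cells in both libraries. The class was kept under the others, and of these only the shares at equal depth are given, with the monocyte levels above. No paired analysis was possible because each group has 1 library. Depth limits the sham endothelia most, where 10 CPM is about 2 UMIs.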

Other observations

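Several clusters that took no class name held members. A cluster of 99 TAC cells led by Cxcl13, Cd14 and Ccl8 had Lrg1 at 313 CPM (439 UMIs), Hp at 325 CPM (456 UMIs), Lcn2 at 181 CPM (254 UMIs) and Cebpb at 2424 CPM (3398 UMIs). It held both the neutrophil gene S100a8 (8215 CPM) and the macrophage gene C1qa (6889.9 CPM).

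A cluster led by Hapln1, Inhba and Pthlh (42 sham and 14 TAC cells) had Lrg1 at 62.5 CPM (12 UMIs) in sham and 277 CPM (35 UMIs) in TAC. Its Serpina3n was at 5.2 CPM from 1 UMI in sham and 308 CPM (39 UMIs) in TAC. A cluster with both fibroblast genes (Mfap4, Mfap5 and Pi16) and heart muscle transcripts (Mhrt and Ttn) in the lead scored highest on fibroblast and next on cardiomyocyte markers (16 and 33 cells). It had 0 UMIs of Serpina3n in sham and 341 CPM (131 UMIs) in TAC, where fibroblasts were at 379 CPM. In 49 TAC cells led by Car4, Rbp7 and Timp4, which also held C1qa at 4739 CPM, Lrg1 was at 181 CPM (140 UMIs).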
